A study of Homo sapiens with 6 samples.

Results

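The 10 genes described here encode 7 matrix metalloproteinases (MMP1, MMP2, MMP3, MMP7, MMP14, MMP15 and MMP19) and 3 tissue inhibitors of metalloproteinases (TIMP1, TIMP2 and TIMP3). They were taken by symbol from a table of 60664 genes, and all 10 were found and passed the filter on low counts, as did 15867 genes in all. RNA was sequenced from the human ovarian carcinoma line SKOV3, in 3 cultures with knockdown of JUP by a short hairpin RNA (shJUP 1 to 3) and in 3 cultures with a control hairpin (shNC 1 to 3, genotype given as WT). JUP encodes plakoglobin, a protein of desmosomes and adherens junctions, and the title of the series places it upstream of PDGFB and JAK-STAT signalling. The labels give no time after knockdown, and do not say how many hairpins or clones were used. Every culture carries a hairpin, so other effects of the JUP hairpin and effects of less JUP cannot be told apart. Values for a group are given in the order of its cultures 1, 2 and 3.

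Matrix metalloproteinases are zinc-dependent endopeptidases that cut collagens, gelatin, proteoglycans and other proteins outside the cell. Most are secreted as inactive proenzymes, and some are anchored in the plasma membrane. TIMPs bind the active site of these enzymes and block it, and TIMP2 together with the membrane-anchored MMP14 also helps to activate the MMP2 proenzyme. In ovarian carcinoma these enzymes are studied for their part in invasion through the peritoneal matrix. Transcript levels do not show how much enzyme is secreted, activated or inhibited.

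Promoter sequences from RefSeq (build GRCh38.p14, 250 bases before to 50 bases after the annotated start) matched 5 of the 10 genes, namely MMP7, MMP14, MMP15, TIMP1 and TIMP3. The MMP7 and TIMP3 windows are printed because these 2 genes stood at opposite ends of the fold changes below. Each is written 5′ to 3′ on the strand of its gene, with matched motifs in capitals. The MMP7 window lies at chr11:102530698-102530997 (minus strand) and the TIMP3 window at chr22:32801455-32801754 (plus strand).
MMP7: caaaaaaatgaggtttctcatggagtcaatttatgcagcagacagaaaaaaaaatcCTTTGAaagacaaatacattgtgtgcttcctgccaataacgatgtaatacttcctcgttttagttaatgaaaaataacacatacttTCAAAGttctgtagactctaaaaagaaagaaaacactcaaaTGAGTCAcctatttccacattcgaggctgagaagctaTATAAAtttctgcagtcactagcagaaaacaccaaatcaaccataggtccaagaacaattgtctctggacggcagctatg
TIMP3: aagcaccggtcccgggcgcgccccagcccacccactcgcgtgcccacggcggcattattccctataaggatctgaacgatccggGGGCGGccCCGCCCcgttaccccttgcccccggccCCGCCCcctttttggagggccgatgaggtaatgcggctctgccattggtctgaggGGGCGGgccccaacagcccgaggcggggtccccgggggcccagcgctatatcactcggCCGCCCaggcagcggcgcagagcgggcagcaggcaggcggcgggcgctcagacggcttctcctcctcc
Motifs were searched on both strands. The capitals in MMP7 mark the AP-1 motif TGAGTCA (first base 67 bases before the start, position -67), the TATA motif TATAAA (position -30) and 2 matches to the TCF/LEF core CTTTGA (positions -194 and -108, the second as its reverse complement TCAAAG). No 2 of these matches overlap. TIMP3 held 5 matches to the GC box GGGCGG or its reverse complement CCGCCC and none to the other motifs. Among all 35116 promoters in the table, 4.95% held the AP-1 motif, 11.5% the TATA motif, 12.9% the TCF/LEF core and 45.0% the GC box. The MMP14, MMP15 and TIMP1 windows held only GC boxes among these motifs. The share of G and C was 35.7% in the MMP7 window, against 55.0% to 75.3% in the other 4.

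The libraries held 17456121 to 18908278 estimated counts in shJUP and 18157973 to 19279514 in shNC. JUP stood at 39.9, 93.6 and 24.6 CPM (counts scaled to the library total after TMM, a correction for library composition) in the shJUP cultures, and at 104, 133 and 101 CPM in the shNC cultures. Every shJUP library lay below every control, with shJUP 2 the least reduced. Its log2 fold change, always given as shJUP over shNC, was -1.10 (SE 0.44, adjusted p = 0.47 by edgeR). Among the fits on all 6 libraries, JUP passed only DESeq2 with the library number as a block (adjusted p = 0.049, with 5.0e-11 to 0.89 over all alternatives). Of 8 markers of the ovarian line, PAX8 (253 to 393 CPM over all libraries), KRT8 (494 to 839 CPM) and ERBB2 (2320 to 6910 CPM) were high. EPCAM was low (1.25 to 4.62 CPM), and MUC16 and WFDC2 stayed at or below 0.637 and 0.213 CPM. At least 1 CPM in some library was reached by 1 of 11 leukocyte markers and by 7 of 10 fibroblast markers. The same held for 7 of 10 endothelial and 6 of 8 mesothelial markers. Among the leukocyte markers, CD3E, MS4A1, S100A8 and MPO were at 0 throughout. The summed leukocyte markers lay between 22.1 and 36.7 CPM in shJUP and between 19.9 and 32 CPM in shNC, nearly all of it CD68.

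The proteases MMP1, MMP2 and MMP7 stood below their controls in shJUP for each of the 3 library numbers, by 1.93-fold to 7.92-fold. Of the inhibitors, TIMP1 and TIMP2 had ratios of 0.666 to 0.997 to the control with the same number. MMP19 and TIMP3 had a mean of 190% and 193% of the control mean, and MMP3, MMP14 and MMP15 differed between the groups by less than the spread between replicates. Over all genes the edgeR quasi-likelihood test (Benjamini-Hochberg adjusted p under 0.05) called 0 of 15867 (0.0%), and so 0 of the 10. At an unadjusted p under 0.05 it held 2 of the 10 as lower (MMP1 and MMP2), against 4.87% of all tested genes, and 1 as higher (MMP19), against 5.17%. This test used the group only, as did all values given without mention of a block. With the library number as a block, an alternative fit, edgeR called 1 gene of 15867 (0.0063%), which was MMP7. DESeq2 called 174 of 15281 genes (1.14%) without the block, 0.51% as lower, among them MMP2. With the block it called 688 of 13554 (5.08%), 2.81% as lower, among them MMP1, MMP2 and MMP7. Without both number-2 libraries edgeR called 0.308% of genes, among them MMP2, and DESeq2 4.38%, among them MMP2, MMP7 and TIMP2. Without the filter edgeR called 0.0158%, again with MMP2. In bulk RNA, fewer cells that express a gene and less RNA per cell cannot be told apart.

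**Figure D1:**
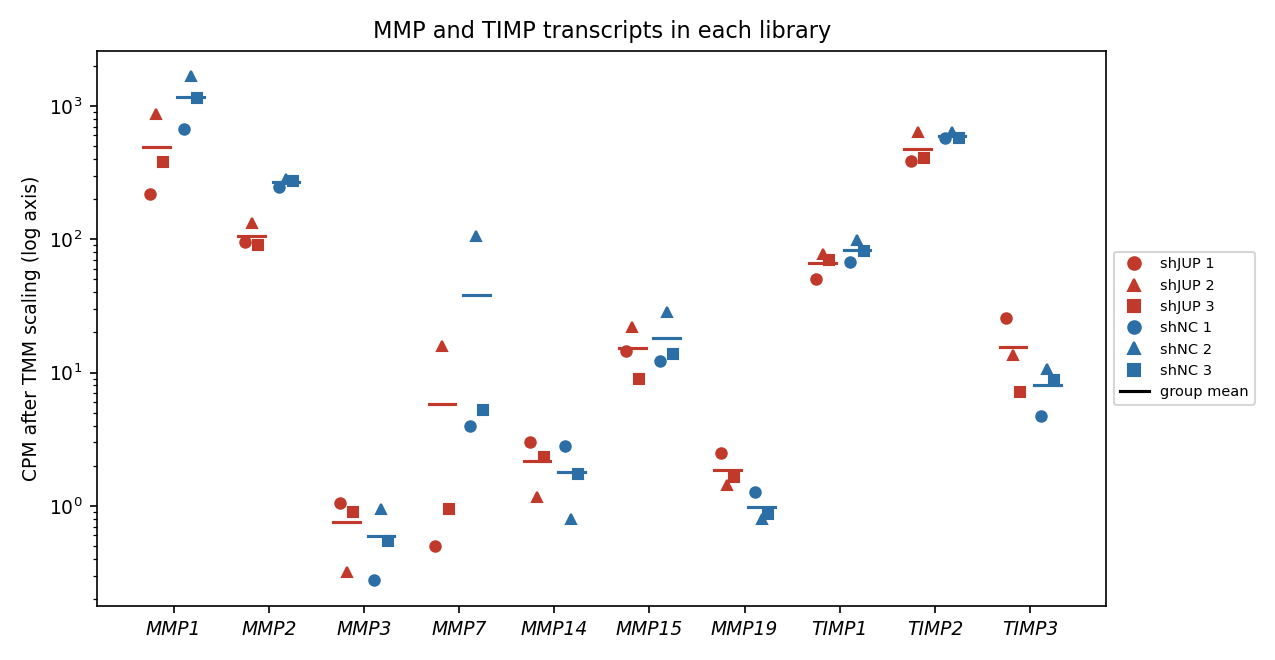
Level of each gene in each library, as CPM after TMM scaling on a log axis, with shJUP libraries in red to the left of shNC libraries in blue, symbols for library numbers 1 to 3 and a bar at the group mean. The groups are fully apart for MMP2 (lower in shJUP) and MMP19 (higher in shJUP), and both number-2 libraries sit far above the rest for MMP7.

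Per kilobase of exon (exon lengths from GENCODE release 29), the order of the levels put a secreted collagenase and an inhibitor at the top. MMP1 had a level of 248 ± 172 CPM per kilobase in shJUP and 590 ± 255 in shNC, and TIMP2 84.2 ± 25 in shJUP and 106 ± 6.4 in shNC (SD, n = 3 each). These 2 genes led in both groups. MMP2 had rank 4 in shJUP at 21.5 ± 4.7 CPM per kilobase and rank 3 in shNC at 54.1 ± 4.1 (SD, n = 3 each). TIMP1 held the opposite ranks, with 43 ± 9.2 in shJUP and 53.6 ± 10 in shNC. In the controls the ranges of MMP2 and TIMP1 overlapped, as did those of TIMP1 and MMP7 and those of MMP7 and MMP15. MMP7 had rank 7 in shJUP (2.49 ± 3.8 CPM per kilobase) and rank 5 in shNC (16.6 ± 25). MMP15 and TIMP3 lay between 1.74 and 4.12 CPM per kilobase by group mean. MMP14, MMP3 and MMP19 had group means of at most 0.487 CPM per kilobase, and their ranges overlapped in that order in the controls.

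MMP2, gelatinase A, which cuts type IV collagen and denatured collagen, was the member whose groups were most clearly apart. It stood at 94.7, 133 and 91.2 CPM in the shJUP cultures, against 245, 285 and 271 CPM in the shNC cultures. Every shJUP library was below every control, and the spread within a group was small (a mean of 106 ± 23 CPM for shJUP and 267 ± 20 CPM for shNC, SD, n = 3 each). Groups apart in this direction were seen for 8.65% of all tested genes. edgeR gave a log2 fold change of -1.33 (SE 0.17, unadjusted p = 7.0e-05, adjusted p = 0.28). DESeq2 called MMP2 lower with an adjusted p of 1.3e-08. Over the 16 alternatives the adjusted p of MMP2 ranged from 1.0e-22 to 0.74, and edgeR also passed it without the filter (0.016) and without both number-2 libraries (0.041). The block gave 0.062 in edgeR and 6.7e-19 in DESeq2.

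MMP1, the interstitial collagenase, which opens the triple helix of fibrillar collagens, stood at 219, 867 and 378 CPM in the shJUP cultures, against 671, 1676 and 1140 CPM in the shNC cultures. The groups overlapped, since shJUP 2 lay above shNC 1. In both groups the number-2 library was the highest, 2.91 times the mean of the other two in shJUP and 1.85 times in shNC. Relative to its own numbered control, shJUP 1 had a ratio of 0.326 (95% counting interval 0.314 to 0.338), shJUP 2 one of 0.518 (0.508 to 0.528) and shJUP 3 one of 0.332 (0.323 to 0.341). MMP1 was not called without a block (log2 -1.25, SE 0.52, adjusted p = 0.49 in edgeR and 0.55 in DESeq2). The block gave -1.39 (SE 0.16, adjusted p = 0.074 in edgeR), and MMP1 passed in DESeq2 with the block (2.9e-15). Without shJUP 2 the unblocked value was -1.96 (adjusted p = 0.23 in edgeR), and over the alternatives the adjusted p ranged from 2.9e-15 to 0.9.

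MMP7, matrilysin, a small protease without the hemopexin domain that most family members carry, varied far more between library numbers than between groups. Its counts were 9, 298 and 18 in the shJUP cultures, against 72, 2004 and 97 in the shNC cultures, or 0.502, 15.9 and 0.956 CPM in the shJUP cultures against 3.98, 106 and 5.28 CPM in the shNC cultures. The number-2 library was 21.8 times the mean of the other two in shJUP and 23 times in shNC, and the groups overlapped because shJUP 2 lay above shNC 1 and shNC 3. The ratio of shJUP to shNC was alike from number to number. The pairing by number was taken from these same data and is undecided for numbers 1 and 3. The likeness of the ratios and the fits with the block depend on that pairing. shJUP 1 had 0.126 of its control (95% counting interval 0.0555 to 0.253), shJUP 2 had 0.149 (0.132 to 0.169) and shJUP 3 had 0.181 (0.103 to 0.302), with intervals that overlap each other. Among the fibroblast markers, DCN (0.614, 5.87 and 0.743 CPM in the shJUP cultures, against 0.553, 7.54 and 2.45 CPM in the shNC cultures) also had its highest value of each group in the number-2 library. LUM had the same pattern, with 1.23, 6.67 and 0.903 CPM in the shJUP cultures and 1.66, 15.5 and 4.41 CPM in the shNC cultures. FAP, POSTN, THY1 and ACTA2 had it too, at no more than 0.693 CPM in shJUP. Other markers of the list did not. COL6A3 (251, 49.5 and 13.2 CPM), COL3A1 (5.58, 0.16 and 0.0531 CPM) and COL1A2 (7.98, 1.55 and 0.372 CPM) were highest in shJUP 1 among the shJUP cultures, as was the summed list. The part of the fibroblast markers in the MMP1 and MMP7 values was not tested. MMP7 fell by 2.71 on the log2 scale in edgeR with the block (SE 0.14, adjusted p = 0.034) and in DESeq2 with the block (adjusted p = 5.2e-22). Without the block the log2 fold change was -2.73 (SE 1.57, adjusted p = 0.60 by edgeR), and DESeq2 gave MMP7 no p-value. With only 1 of the number-2 libraries taken out, the unblocked value was -5.71 without shJUP 2 and 0.32 without shNC 2. Without both number-2 libraries it was -2.64 (adjusted p = 0.064 in edgeR, 5.4e-04 in DESeq2), and the adjusted p of MMP7 ranged from 5.2e-22 to 0.94 over the alternatives that gave one.

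**Figure D2:**
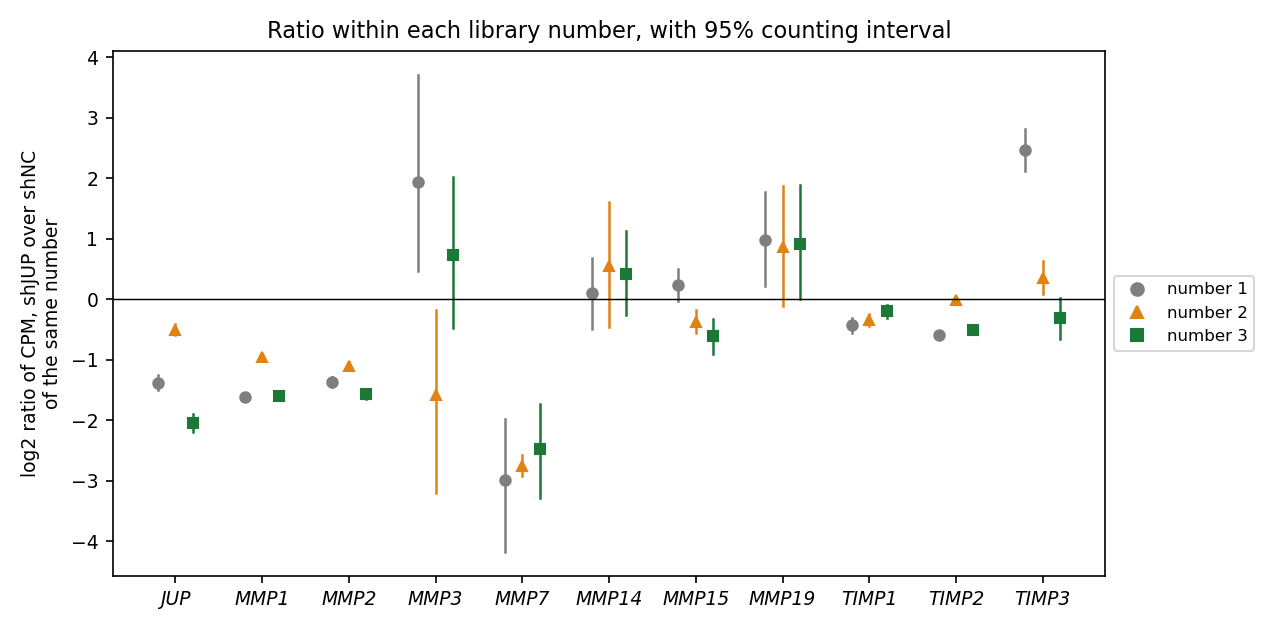
Log2 ratio of the CPM of each shJUP library to that of the shNC library of the same number, for JUP and the 10 genes, with lines for the 95% counting interval. MMP1, MMP2 and MMP7 are below 0 for all 3 numbers, and the 3 MMP7 points lie between -2.99 and -2.47.

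Set beside the ratios of JUP itself, which were 0.384, 0.705 and 0.243 for numbers 1, 2 and 3, the members did not share 1 order. The number-2 pair, where JUP was least reduced, also had the ratio nearest to 1 for MMP1, for MMP2 (0.386, 0.467 and 0.337), for TIMP2 (0.666, 0.997 and 0.706) and for MMP19 (1.98, 1.81 and 1.89). The order of MMP19 is uncertain, because its 3 counting intervals overlap (1.17 to 3.42, 0.928 to 3.66 and 1 to 3.7). The nearest ratio was that of number 3 for MMP3, MMP7, TIMP1 and TIMP3, and that of number 1 for MMP14 and MMP15. These orders are uncertain too. The 3 intervals overlap for MMP7, for MMP14 and for TIMP1. The TIMP3 ratios of 1.28 in number 2 and 0.807 in number 3 are about equally far from 1. The share of all tested genes nearest to 1 in number 2 was not counted. MMP7 had its middle ratio in number 2. No correlation with the JUP ratio is given over only 3 pairs. A lower level in all 3 numbers was seen for 5 of the 10 (MMP1, MMP2, MMP7, TIMP1 and TIMP2), against 22.5% of all tested genes, and a higher level in all 3 for 2 (MMP14 and MMP19), against 21.3%. These counts include near ties. In number 2, TIMP2 was level with its control, with a counting interval of 0.972 to 1.02. For MMP14 the intervals of all 3 numbers held 1.

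MMP3, stromelysin-1, which cuts proteoglycans and activates other proenzymes of the family, was near the limit of detection. Its counts were 19, 6 and 17 in the shJUP cultures, against 5, 18 and 10 in the shNC cultures. The groups overlapped and the direction differed between numbers, with a ratio of 3.84 (95% counting interval 1.39 to 13.1) for number 1 and 0.335 (0.109 to 0.88) for number 2. Its log2 fold change of 0.35 (SE 0.60, adjusted p = 0.86 by edgeR) was smaller than its standard error. Without both number-2 libraries it was 1.25 (SE 0.50, adjusted p = 0.27 by edgeR, 0.27 to 1 over the alternatives).

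The membrane-anchored proteases did not differ beyond their spread. MMP14, which activates the MMP2 proenzyme at the cell surface, was at 3.01, 1.17 and 2.34 CPM in the shJUP cultures, against 2.82, 0.797 and 1.74 CPM in the shNC cultures. Each shJUP library was slightly above the control of its number, and both number-2 libraries were the lowest of their group. Its log2 fold change was 0.28 (SE 0.53, adjusted p = 0.88 by edgeR) from 15 to 54 counts per library, and all 3 counting intervals of the ratio held 1. MMP15, a related membrane-type enzyme, was at 14.5, 22 and 8.97 CPM in the shJUP cultures, against 12.3, 28.5 and 13.7 CPM in the shNC cultures. Here the number-2 libraries were the highest of their group, and the log2 fold change was -0.26 (SE 0.41, adjusted p = 0.85 by edgeR).

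MMP19, a secreted protease first described as an autoantigen in rheumatoid arthritis, was the only member besides MMP2 with groups apart. It had 45, 27 and 31 counts in the shJUP cultures, against 23, 15 and 16 counts in the shNC cultures. Each shJUP library was above each control, as for 8.39% of all tested genes in that direction, and the ratio within a number was 1.98, 1.81 and 1.89. At a log2 fold change of 0.92 (SE 0.36) it did not pass (adjusted p = 0.46 in edgeR, 0.51 in DESeq2 and 0.18 in edgeR with the block, with a range of 0.18 to 0.89 over the alternatives). The counts are few, and 17.4% of the exon bases of MMP19 in GENCODE release 29 lie opposite exons of TMEM198B, which had 60 to 116 counts per library. The value of MMP19 is uncertain, because no source used here says whether counting used the strand.

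**Figure D3:**
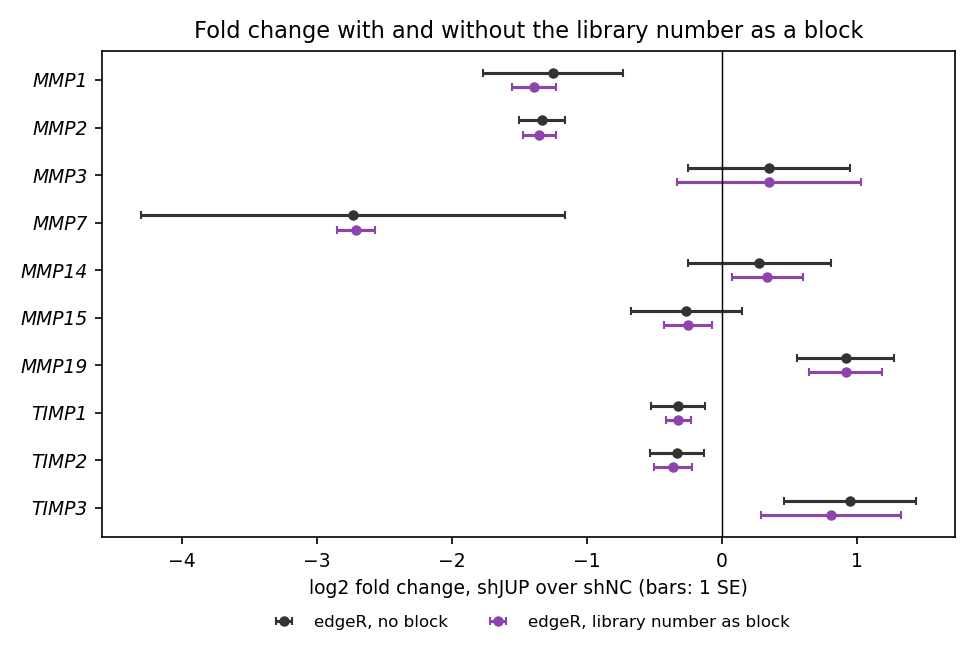
Log2 fold change (shJUP over shNC, bars of 1 SE) of each gene from edgeR without a block (black) and with the library number as a block (purple). The SE of MMP7 is 0.14 with the block and 1.57 without it, and that of MMP1 0.16 with it and 0.52 without it, while the MMP7 values are -2.73 and -2.71.

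Among the inhibitors, TIMP1, a secreted inhibitor of most secreted MMPs, was at 50.4, 78 and 70.4 CPM in the shJUP cultures, against 67.9, 99 and 80.9 CPM in the shNC cultures. It was below its control in each number, with ratios of 0.743, 0.788 and 0.871, though the groups overlapped. Its log2 fold change was -0.32 (SE 0.20, adjusted p = 0.62 by edgeR, 0.15 with the block, 0.15 to 0.92 over the alternatives). TIMP2, the inhibitor that also bridges MMP14 and the MMP2 proenzyme, was at 383, 635 and 405 CPM in the shJUP cultures, against 576, 637 and 573 CPM in the shNC cultures. The library shJUP 2 lay at the level of the controls, and the other two lay below all of them. This gave a log2 fold change of -0.33 (SE 0.20, adjusted p = 0.61 by edgeR, 0.24 with the block). Without both number-2 libraries it was -0.53 (adjusted p = 0.092 in edgeR, 7.2e-04 in DESeq2), and over the alternatives the adjusted p of TIMP2 ranged from 7.2e-04 to 0.95.

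TIMP3, an inhibitor that stays bound to the extracellular matrix, was at 25.8, 13.5 and 7.12 CPM in the shJUP cultures, against 4.7, 10.6 and 8.81 CPM in the shNC cultures. The high mean of shJUP came mainly from shJUP 1, and shJUP 3 lay below 2 of the controls. Set against its numbered control, shJUP 1 had a ratio of 5.5 (95% counting interval 4.36 to 7.01), shJUP 2 one of 1.28 (1.06 to 1.55) and shJUP 3 one of 0.807 (0.637 to 1.02). At a log2 fold change of 0.95 (SE 0.49) it did not pass (adjusted p = 0.56 in edgeR, 0.43 in DESeq2, 0.32 to 0.88 over the alternatives), and the value was 0.36 without shJUP 1. The summed level of the 10 fibroblast markers was 268, 65.5 and 16.3 CPM in the shJUP cultures and 10, 234 and 41.6 CPM in the shNC cultures, so it was also highest in shJUP 1 and lowest in shNC 1, and highest among the controls in shNC 2. Most of the sum in shJUP 1 was COL6A3, a chain of type VI collagen, at 251 CPM, while in shNC 2 COL6A3 was at 91.3 CPM, COL3A1 at 46 CPM, POSTN at 44.2 CPM, COL1A2 at 26.1 CPM and LUM at 15.5 CPM. PDGFRB and THY1 stayed at or below 0.319 and 0.266 CPM in every library. The part of these markers in the TIMP3 values was not tested. TIMP3 overlaps the span of SYN3, which is read from the opposite strand, but shares no exon base with it, and SYN3 had 647 to 1108 counts per library.

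MMP2 was lower by more than its inhibitors, so its transcript ratio to them was also lower. The log2 ratio of MMP2 to TIMP2 CPM was -2.02, -2.26 and -2.15 in the shJUP cultures, against -1.23, -1.16 and -1.08 in the shNC cultures, a difference of -0.98 with no overlap between the groups. The log2 ratio of MMP2 to TIMP1 was 0.68 ± 0.28 in shJUP and 1.71 ± 0.17 in shNC (SD, n = 3 each), a difference of -1.02, again without overlap. MMP2 by itself already had its groups apart, so these ratios are not findings separate from it. How often such ratios of other genes lie apart was not counted. The other ratios overlapped between the groups but kept 1 direction within each number. The log2 ratio of MMP7 to TIMP1 was -6.65, -2.29 and -6.20 in the shJUP cultures, against -4.09, 0.10 and -3.94 in the shNC cultures, lower in shJUP for all 3 numbers (mean difference -2.41). That of MMP14 to TIMP2 was -6.99, -9.08 and -7.44 in the shJUP cultures, against -7.67, -9.64 and -8.36 in the shNC cultures, higher in shJUP for all 3 numbers (mean difference 0.72). It rested on 15 to 54 MMP14 counts per library, and the counting intervals of the MMP14 ratio held 1 in all 3 numbers. These ratios were read as descriptions with no test. A difference between groups does not depend on gene length, but a single ratio does.

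**Figure D4:**
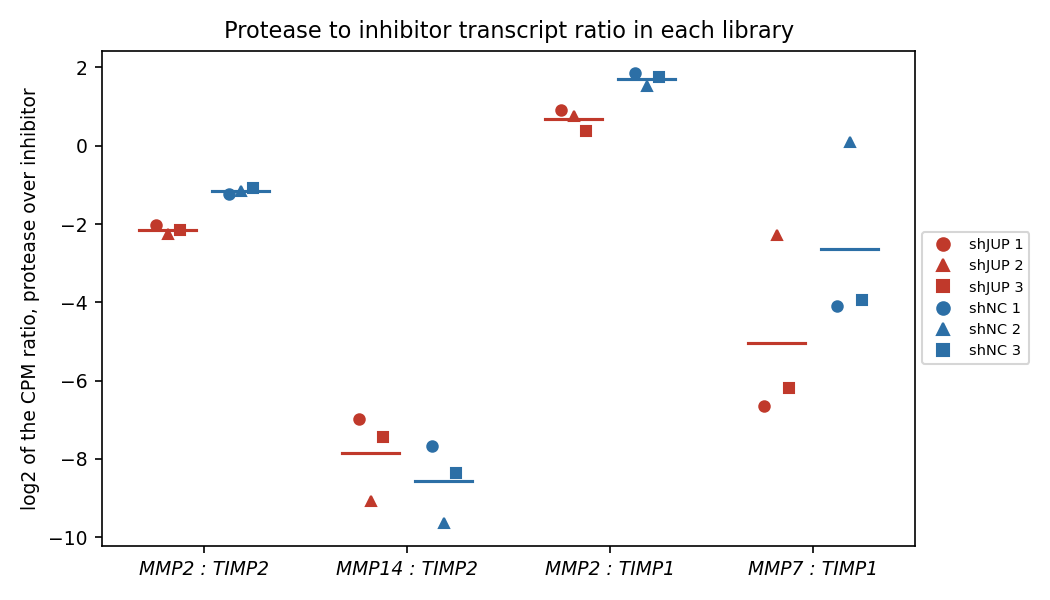
Log2 of the CPM ratio of a protease to an inhibitor in each library, with shJUP in red to the left of shNC in blue and a bar at the group mean. The MMP2 ratios are lower in all 3 shJUP libraries than in all 3 shNC libraries for both TIMP2 and TIMP1, whereas the ratios with MMP14 and MMP7 overlap between the groups.

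The 10 genes as a group had 6 fold changes below 0 and 4 above, with a median log2 fold change of -0.29, against -0.01 over all tested genes. Of the 17 other MMP and TIMP genes, 5 had enough counts to be tested, with 4 below 0 and 1 above and a median of -0.58. The edgeR test and DESeq2, each with or without the block, called 0 of them. MMP10, stromelysin-2, was at 5.97, 16.2 and 14.4 CPM in the shJUP cultures, against 63.1, 11.2 and 69.9 CPM in the shNC cultures, and shNC 2 lay within the shJUP range (log2 -1.98, SE 0.66, adjusted p = 0.44 by edgeR). MMP16, a membrane-type enzyme, was at 16.2 ± 1.36 CPM for shJUP and 21.2 ± 3.25 CPM for shNC (SD, n = 3 each; log2 -0.39, SE 0.15, adjusted p = 0.47 by edgeR). MMP13, named after its values were seen, shared the high number-2 libraries of MMP1 and MMP7, with 1127, 2591 and 240 counts in the shJUP cultures and 655, 7399 and 1395 counts in the shNC cultures. The gelatinase MMP9 had 0 to 3 counts per library, and MMP26, MMP27 and TIMP4 had 0 in all 6.

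Genes that act on these proteases or are linked to their transcription were read from lists of the same kind. Of 20 activators and regulators of MMPs, 17 were tested, 12 below 0 and 5 above (median log2 -0.15), and 0 were called by edgeR or DESeq2 with or without the block. The smallest p-values there belonged to PCSK6 (1.66 ± 0.657 CPM for shJUP and 3.71 ± 0.289 CPM for shNC, log2 -1.15, adjusted p = 0.41 by edgeR) and FURIN (85.4 ± 16.6 CPM for shJUP and 124 ± 17.2 CPM for shNC, log2 -0.53, adjusted p = 0.43 by edgeR), which encode proprotein convertases (SD, n = 3 each). FURIN is known to cut the propeptide of MMP14. Of the 10 AP-1 factors, whose motif was printed in the MMP7 promoter, 4 were below 0 and 6 above (median 0.27). DESeq2 with the block called 2 of them, where it called 5.08% of all genes. It called FOSL1 higher (137, 85.5 and 207 CPM in the shJUP cultures, against 65.5, 55.5 and 90.3 CPM in the shNC cultures, adjusted p = 1.1e-07). It called JUNB lower (66, 176 and 88.9 CPM in the shJUP cultures, against 168, 308 and 161 CPM in the shNC cultures, adjusted p = 1.3e-08). Neither was called by DESeq2 without the block (0.076 for FOSL1 and 0.25 for JUNB) or by edgeR.

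Of 13 ETS and Wnt pathway factors linked to MMP7 transcription, 7 were below 0 and 6 above (median log2 -0.16). ETS2 was at 161 ± 18.3 CPM for shJUP and 100 ± 9.33 CPM for shNC (SD, n = 3 each; log2 0.68, SE 0.13), called by DESeq2 (adjusted p = 0.0031), which called 1.14% of all genes, and not by edgeR (0.33). With the block, where it called 2.81% of all genes lower, DESeq2 also called ELK3 lower (209 ± 13.9 CPM for shJUP and 280 ± 28.9 CPM for shNC, adjusted p = 0.031) and ELF3, an epithelial ETS factor, lower (adjusted p = 7.5e-05). ELF3 was at 13.2, 67.8 and 14.8 CPM in the shJUP cultures, against 27.1, 101 and 35.9 CPM in the shNC cultures, with the number-2 library highest in both groups as for MMP7. Of 25 ADAM, ADAMTS and tolloid genes, relatives in the same protease clan, 21 were tested, 12 below 0 and 9 above (median -0.17), and DESeq2 called 4 lower and 0 higher, where it called 0.51% of all genes lower. These were TLL1 (adjusted p = 2.3e-07), BMP1 (3.0e-05), ADAMTS15 (0.018) and ADAM10 (0.043), and edgeR called 0. With the block DESeq2 called the same 4 lower, where it called 2.81% of all genes lower, with ADAMTS1 higher (adjusted p = 0.0013, against 0.82 without the block).

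The genes whose log2 CPM was most like that of MMP2 over the 6 libraries, among 11369 genes with a mean of at least 5 CPM, were FADS2 (Pearson r = 0.998, Spearman rho = 0.94), SDF4 (0.992 and 1.00) and GOLPH3L (0.992 and 0.94). For MMP7 they were POLI (1.000 and 1.00), GBP5 (0.998 and 1.00) and CALCOCO1 (0.998 and 1.00). GBP5, an interferon-inducible GTPase, was at 12.4, 61.5 and 15.2 CPM in the shJUP cultures, against 33.1, 192 and 36.5 CPM in the shNC cultures, and so had the high number-2 libraries of MMP7. POLI followed the same order within a range of 20.7 to 27.6 CPM. The most opposite genes were FICD (r = -0.999), UCHL5 (-0.991) and BAK1 (-0.990) for MMP2, and POLR3F (-0.997), SUGT1 (-0.995) and TCP1 (-0.995) for MMP7. These were picked as the extremes of many genes over few libraries and are given as a description. Among the members themselves, r was highest for MMP1 with TIMP1 (0.94) and lowest for MMP1 with MMP19 (-0.96).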

How the data were processed

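Poly(A)-selected RNA was sequenced on a DNBSEQ platform. Estimated counts for each Ensembl gene, 1 column per library and unscaled, were deposited by the authors. The submitters' processing notes list STAR 2.7.9a, RSEM 1.3.3, edgeR 3.32.1 and DESeq2 1.26.0 without their roles, and the labels' protocols name FPKM from Cuffdiff, which were not used here. The genome build, annotation and strand setting were not given in the sources used here. Of 60695 rows, 31 held annotation text in place of a gene and were left out. In each library 33.9% to 36.3% of the counts above 0 were not whole, and all were rounded. Fits used edgeR 4.0.16 in R 4.3.3 (filterByExpr, TMM, two-sided quasi-likelihood test), with DESeq2 1.42.0 on all genes and limma 3.58.1 (voom) as alternatives. edgeR's SE is the size of the log2 fold change divided by the root of its F statistic. Counting intervals are exact (Clopper-Pearson) at 95% and cover counting error only. Replicates are labelled as independent biological ones.

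Libraries with the same number deviated together from their group means (r = 0.14 for number 1, 0.51 for number 2 and 0.20 for number 3). All exceed 0.1, and the number was used as a block in alternative fits. The deviations within a group cancel out, so the match of number 2 alone raises the values among numbers 1 and 3. The values for numbers 1 and 3 therefore cannot decide whether those libraries are pairs. The pairing by number comes from the data, since the labels leave the meaning of a number unsaid. With numbers 1 and 3 exchanged, shJUP 3 with shNC 1 correlated more than either same-number pair (0.39). The exchanged pair shJUP 1 with shNC 3 (0.15) lay between the 2 same-number values. The fits were also run on simulated counts, with the outcome not given here. Those counts held no effect of the library number, so they cannot test how the fits handle one. The 10 genes, the lists and the settings were chosen with earlier results of these data known. Genes named from a list are those with its 2 smallest edgeR p-values and those called by DESeq2 or with the block.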

Additional observations from a re-analysis of the deposited data

How the results depend on the processing

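Of 16 alternatives, the edgeR fits with other scalings, with the stricter filter and with each library left out (0 to 0), and limma-voom, called 0 genes, as the edgeR fit did. The count of genes called was 5 without the filter, 1 with the replicate block, 49 without both number-2 libraries, 174 with DESeq2, 688 with DESeq2 and the replicate block, and 638 when DESeq2 left out both number-2 libraries. In the same order the count among the 10 genes was 1 (MMP2), 1 (MMP7), 1 (MMP2), 1 (MMP2), 3 (MMP1, MMP2 and MMP7) and 3 (MMP2, MMP7 and TIMP2). The cause was not tested. The replicate block changed no call among the 10 genes other than MMP7 in edgeR and MMP1 and MMP7 in DESeq2. The log2 fold change of JUP was -1.30 with DESeq2 and the replicate block (adjusted p = 0.049). It was -1.66 when DESeq2 left out both number-2 libraries (adjusted p = 5.0e-11), and it ranged from -1.80 to -0.75 with 1 library left out. With 1 library left out, 3 genes changed direction, none past the threshold: MMP7 ranged from -5.71 to 0.32, MMP14 from -0.07 to 0.77 and MMP15 from -0.63 to 0.22. MMP1 (-1.96 to -0.89), MMP2 (-1.52 to -1.23), TIMP1 (-0.45 to -0.15) and TIMP2 (-0.60 to -0.19) stayed below 0, and MMP3 (0.02 to 0.88), MMP19 (0.66 to 1.15) and TIMP3 (0.36 to 1.29) above. The stricter filter left MMP3 untested. MMP3, MMP14 and MMP19 rest on 5 to 54 counts per library.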
